A study of Mus musculus with 15 samples.

Results

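The lipoxygenase and leukotriene genes are 10 genes: Alox12e, Alox15, Alox12, Alox8, Alox12b, Aloxe3, Alox5, Alox5ap, Lta4h and Ltc4s. They were chosen by name, because Alox12e and Alox15 were strongly raised in the lung tumours of this series, so the tumour values below are a description and carry no test. All 10 were found among the 18193 genes measured with a probe set of a single gene symbol. The groups were 3 lung tumours from mutant mice and 3 wild type lungs at 12 months, and 3 mutant lungs and 3 wild type lungs at 7 months. The genotype of the mutants includes a deletion of Smad4 (Smad4d/d in the labels), the shared partner of the SMAD proteins, and the effects are those of the whole genotype. All mice were of mixed background, on normal feed and untreated. Each tumour array held part of 1 tumour and each lung array part of a whole lung. The labels used here do not say in which cells the deletion was made, nor whether a 7-month array holds 1 animal, so the p-values measure the spread between these samples, which may be technical. Total RNA was measured on single-colour Affymetrix arrays whose labelling starts at the poly(A) tail, so that most signal comes from the end of a transcript.

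Lipoxygenases add oxygen to arachidonic acid, linoleic acid and related fatty acids, and many are named for the carbon they oxidise, although mouse Alox15 acts mainly at carbon 12 of arachidonic acid. Alox5, with the membrane protein Alox5ap that presents arachidonic acid to it, makes leukotriene A4. Lta4h turns this into leukotriene B4, which draws in neutrophils, and Ltc4s joins it to glutathione to give leukotriene C4, the parent of the cysteinyl leukotrienes that contract airways. Alox12 is the platelet type of 12-lipoxygenase, Alox15 the leukocyte type, also called 12/15-lipoxygenase and known in mouse macrophages, and Alox12e the epidermal type, which is a working gene in the mouse and a pseudogene in humans. Aloxe3 and Alox12b act one after the other on the lipids of the skin barrier, and Alox8 is an 8-lipoxygenase of mouse skin.

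The arrays differed in ways that touch the results. Median intensity was 90.9 to 99.5 on the 15 arrays. Xist, which is transcribed from the silenced X chromosome of females, read 64.1 to 237 on the tumours, while on the wild type arrays of that age it read 69.8 on 1 and 6786 and 6917 on the other 2. At 7 months Xist was high on all 3 mutant and on 2 of 3 wild type arrays, and 48.1 on wild type array 3. A Y-linked gene read 132 to 149 on the 7-month arrays with high Xist and 242 on wild type array 3. On the 12-month arrays with high Xist it read 2.98 and 6.94, and 408 to 467 on the other 12-month arrays. The sex or number of animals behind a 7-month array was not tested. The control probe sets of 18S ribosomal RNA ranged from 1121 to 2036 in tumours and 5492 to 6933 in wild type lungs at 12 months, and 6556 to 8084 in mutant lung and 6866 to 7032 in wild type lung at 7 months. Smad4 itself ranged from 2965 to 3688 in tumours and from 2664 to 2924 in the wild type lungs of that age, and 3166 to 3364 in mutant and 3163 to 3304 in wild type lung at 7 months. Smad4 intensity was thus not lower in either mutant group. No source used here places its probe sets inside or outside the deletion, so these values do not check the genotype.

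Alox12, Alox12e and Alox15 are direct neighbours on mouse chromosome 11, with 0 other protein-coding genes between them in RefSeq's annotation of GRCm38.p6. Their promoters were looked up because neighbouring genes of 1 family moved so differently in the tumours. RefSeq's promoter table for that build held 7 of the 10 genes and not Alox15, Alox5ap or Aloxe3. The windows shown run from 250 bases before to 50 after the start of the gene, 5′ to 3′ on the gene's own strand, which is the minus strand for both. Alox12e lies at chr11:70322481-70322780 and Alox12 at chr11:70255321-70255620. Capitals mark every match, on either strand, to the SP/KLF box GGGCGG and the SMAD box CAGAC.
Alox12e: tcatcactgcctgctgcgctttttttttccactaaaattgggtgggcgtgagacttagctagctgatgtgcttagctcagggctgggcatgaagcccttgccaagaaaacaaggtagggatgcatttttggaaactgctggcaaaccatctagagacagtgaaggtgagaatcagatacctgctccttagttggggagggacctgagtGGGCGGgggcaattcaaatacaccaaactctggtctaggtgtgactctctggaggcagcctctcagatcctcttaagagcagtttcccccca
Alox12: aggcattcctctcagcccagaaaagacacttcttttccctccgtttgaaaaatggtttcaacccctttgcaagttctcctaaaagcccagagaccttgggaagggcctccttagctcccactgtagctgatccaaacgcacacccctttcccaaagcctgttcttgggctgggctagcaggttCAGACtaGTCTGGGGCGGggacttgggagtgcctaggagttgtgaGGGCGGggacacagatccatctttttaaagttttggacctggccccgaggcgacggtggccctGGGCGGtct

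The Alox12e window held 1 SP/KLF box and 0 SMAD boxes, and the Alox12 window held 3 and 2, none of them overlapping. The AP-1 motif TGANTCA and the STAT6 motif TTCNNNNGAA were searched on both strands as well and had 0 matches in the 7 windows. Over all 32851 promoter windows of the table, 35.7% held the SP/KLF box, 49.6% the SMAD box, 7.81% the AP-1 motif and 6.95% the STAT6 motif. Of the 7 windows, 5 held the SP/KLF box and 6 the SMAD box, Alox12e being the one without it. A match in such a window is a description of the letters and not a bound site.

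Alox12e was near the bottom of the array's range in wild type lung and bright in every tumour. It read 1230.25, 729 and 1723 in the 3 tumours, against 7.30, 10.2 and 9.84 in the 3 wild type lungs at 12 months. The dimmest tumour lay far above the brightest wild type lung. The mean was 1227 ± 497 in tumours and 9.12 ± 1.58 in wild type lung (SD, n = 3 each), 46.8-fold higher on the log2(intensity + 16) scale (log2 fold change 5.55). All 3 wild type values lay below the 16 that was added before taking logs, so the size of the fold depends on that number: it was 115-fold with 1 and 16.7-fold with 64. Against the 1 wild type array without Xist signal, which had the Y-linked signal of the tumours, the fold was 44.8.

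At 7 months Alox12e read 22.65, 113 and 272 in mutant lungs and 9.85, 6.90 and 27.25 in wild type lungs. The values overlapped, since mutant array 1 lay below wild type array 3, while mutant arrays 2 and 3 were above every wild type array. The fold was 3.83 (log2 fold change 1.94, 95% interval 0.52 to 3.35), and limma's adjusted p over all genes was 0.101, so it was not called. Without mutant array 1 the log2 fold change was 2.71 and the adjusted p 0.00674, without mutant array 3 they were 1.26 and 0.209, and with any other array left out the adjusted p was 0.120 to 0.217. The fold was 6.72 with 1 added before logs and 2.21 with 64, and not called with either. As a ratio of highest to lowest, the 3 mutant lungs, from 22.65 to 272, spread more widely than the 3 tumours.

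Alox15 was also higher in every tumour. It read 797, 446 and 1247 in tumours, against 25.9, 36.7 and 9.04 in wild type lungs at 12 months. The groups did not overlap, and the tumours stood in the same order as for Alox12e, with tumour 3 highest and tumour 2 lowest. The mean was 830 ± 401 in tumours and 23.9 ± 13.9 in wild type lung (SD, n = 3 each), 20.5-fold higher (log2 fold change 4.36). The fold was 35.2 with 1 added and 9.55 with 64, and 14.8 against the wild type array without Xist signal.

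At 7 months Alox15 read 199.5, 307 and 313 in mutant lungs and 193, 192 and 178 in wild type lungs. All 3 mutant lungs lay above all 3 wild type lungs, mutant array 1 by a small margin. The fold was 1.39 (log2 fold change 0.48, 95% interval 0.12 to 0.84, limma's adjusted p 0.108), which missed the threshold. Without mutant array 1, the log2 fold change was 0.68 and the adjusted p 0.00616, while without mutant array 2 they were 0.39 and 0.262 and without mutant array 3 they were 0.37 and 0.269. The adjusted p was 0.470 in 1 model of all 15 arrays. Wild type lung itself differed between the ages, at 9.04 to 36.7 at 12 months and 178 to 193 at 7 months. The ages were 2 separate sets of arrays, so age and array set cannot be told apart, and the 2 tumour genes were read only against wild type lung of their own month.

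The intensity of Alox12e over that of Alox15 was 1.54, 1.63 and 1.38 in the 3 tumours and 0.114, 0.367 and 0.871 in the 3 mutant lungs. These are different probe sets, so the size of the ratio has no meaning of its own. It was close among the tumours and spread more widely among the mutant lungs, where Alox12e varied more than Alox15. No ratio is given for wild type lung, where nearly all Alox12e values lay below 16.

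Alox12 had the opposite sign to its neighbours at 7 months. It read 116, 109 and 73.1 in mutant lungs, against 119.8, 229.6 and 195 in wild type lungs. All mutant values lay below all wild type values, the closest pair being 116 and 119.8. The fold was 1.68 lower in mutant lungs (log2 fold change -0.75, 95% interval -1.25 to -0.25, limma's adjusted p 0.0792), which missed the threshold. It was called without wild type array 1 (adjusted p 0.0142) and with a variance trend and robust fitting (adjusted p 0.0480), but not with any other array left out (adjusted p 0.0946 to 0.201). A second Alox12 probe set, dimmer at 24.7 in mutant lungs and 25.1 in wild type lungs on average, showed a log2 fold change of -0.0011 (adjusted p 0.999). In tumours Alox12 read 119, 117 and 158, and in wild type lungs at 12 months 124, 95.8 and 59.8, which overlap (1.38-fold higher in tumours).

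**Figure D1:**
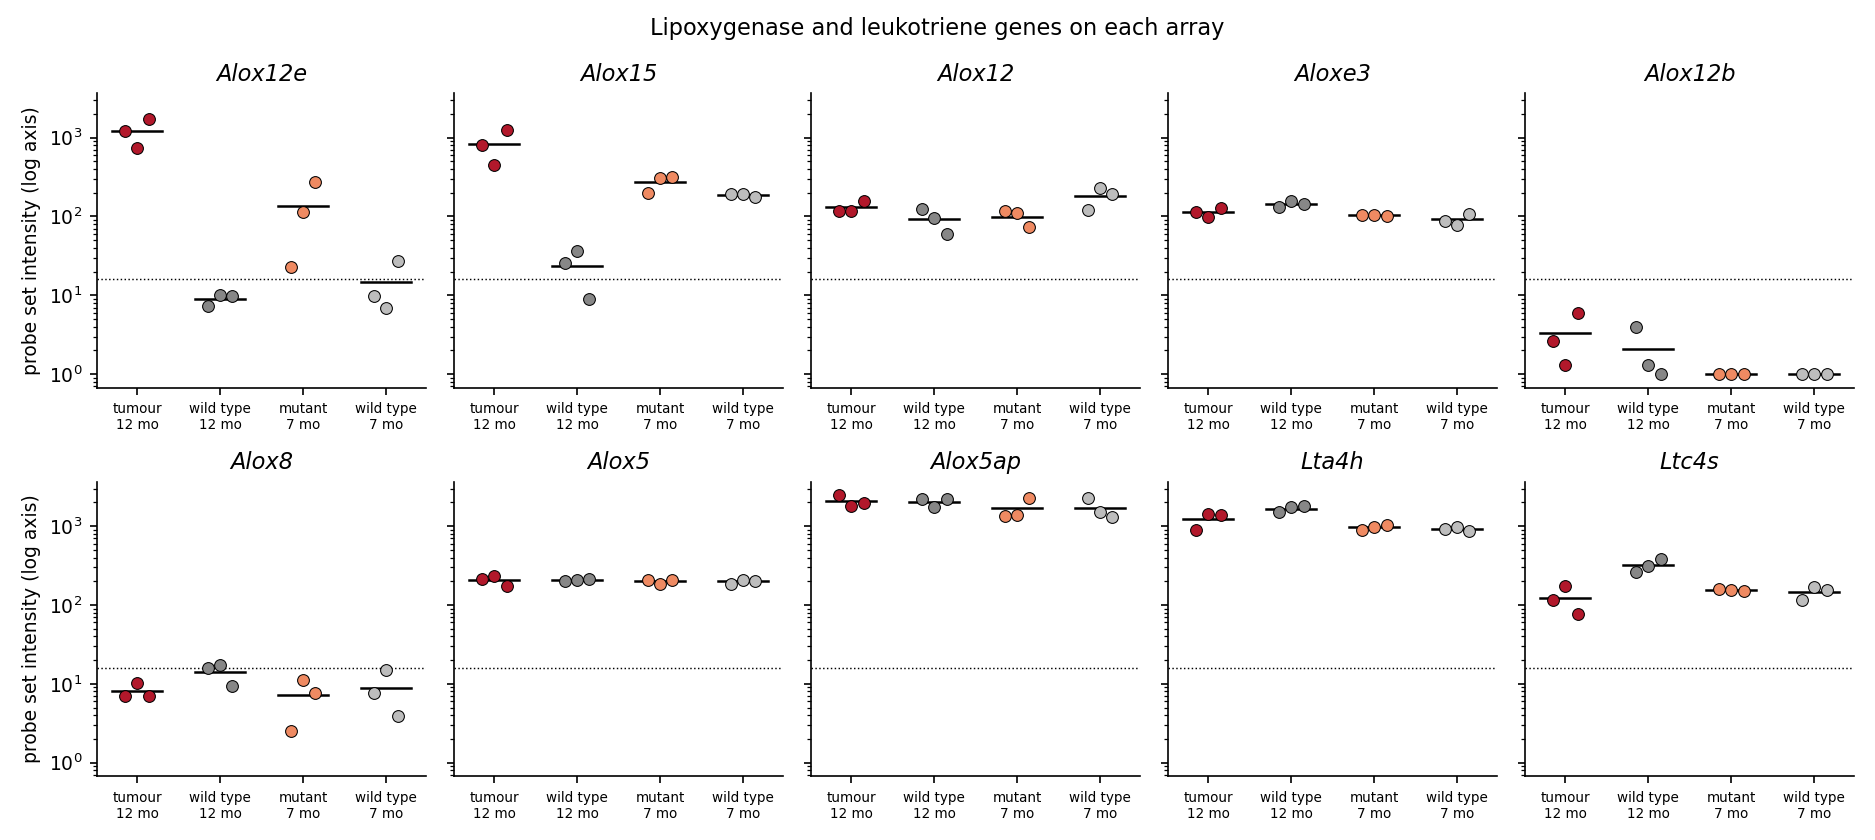
Probe set intensity (log axis) of the 10 genes on each of 12 arrays. Points are arrays, bars are group means of 3, and the dotted line is the 16 added before taking logs. Alox12e and Alox15 in tumours lie apart from wild type lung of 12 months, at 729 to 1723 against 7.30 to 10.2 and 446 to 1247 against 9.04 to 36.7.

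The skin-barrier lipoxygenases did not share the rise of Alox12e. Aloxe3 read 114, 99.3 and 129 in tumours, against 131, 156 and 144 in wild type lungs at 12 months. Every tumour lay below every wild type lung, though the gap was small and the fold 1.23 lower. At 7 months Aloxe3 read 106, 104 and 101.02 in mutant lungs and 88.5, 77.8 and 109 in wild type lungs, which overlap (log2 fold change 0.16, limma's adjusted p 0.394). Alox12b stayed at or under 6 on all 12 arrays and at exactly 1 on all 7-month arrays, a value that 1.55% to 2.01% of probe sets held on each array. Alox8 read 6.98 to 10.2 in tumours and 9.36 to 17.5 in wild type lungs at 12 months, and 2.54 to 11.3 in mutant and 3.95 to 14.99 in wild type lungs at 7 months. All but 1 of these Alox8 values lay below 16, so neither gene gave a level from which a fold could be read.

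The entry enzymes of the leukotriene branch differed little. Alox5 read 211, 230 and 175 in tumours and 202, 206 and 215 in wild type lungs at 12 months. At 7 months it read 208, 187 and 205 in mutant lungs and 185, 209 and 202 in wild type lungs. The groups overlapped at both ages, and at 7 months the 95% interval of the log2 fold change was -0.17 to 0.19 (limma's adjusted p 0.965). Alox5ap was bright throughout, at 2456, 1798 and 1987 in tumours and 2178, 1758 and 2222 in wild type lungs at 12 months. At 7 months it read 1346, 1390.13 and 2286 in mutant lungs and 2263, 1507 and 1297 in wild type lungs (log2 fold change -0.02, 95% interval -0.58 to 0.55, adjusted p 0.979). The high array in each 7-month group, mutant array 3 and wild type array 1, was also the one with the highest summed level of 9 neutrophil markers, 20324 and 15863, or 13559 and 15773 without Ltf. The part of neutrophils in Alox5ap was not tested.

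Both enzymes downstream of leukotriene A4 read lower in tumours, Lta4h only on its brightest probe set. Ltc4s read 117, 176 and 76.6 in tumours, against 264, 314 and 386 in wild type lungs at 12 months. No tumour reached the lowest wild type lung, and the mean was 123 ± 50.1 in tumours and 321 ± 61.0 in wild type lung (SD, n = 3 each), a fold of 2.50 lower (log2 fold change -1.32). The fold was 2.48 lower against the wild type array without Xist signal, and the log2 fold change lay between -1.59 and -1.06 when any 1 array was left out. At 7 months Ltc4s read 160, 157 and 152 in mutant lungs and 116, 168 and 155 in wild type lungs, which overlap (log2 fold change 0.10, 95% interval -0.16 to 0.36, limma's adjusted p 0.668).

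Lta4h read 898, 1408 and 1370.01 in tumours, against 1490, 1743 and 1787 in wild type lungs at 12 months. All tumours lay below all wild type lungs, with a fold of 1.38 lower, and tumour 1 was the lowest by far. This rests on the brightest of 3 Lta4h probe sets: the other two had log2 fold changes of 0.05 and -0.03. At 7 months Lta4h read 899, 986 and 1025 in mutant lungs and 911, 962.5 and 857.5 in wild type lungs (log2 fold change 0.09, 95% interval -0.08 to 0.26, adjusted p 0.529).

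**Figure D2:**
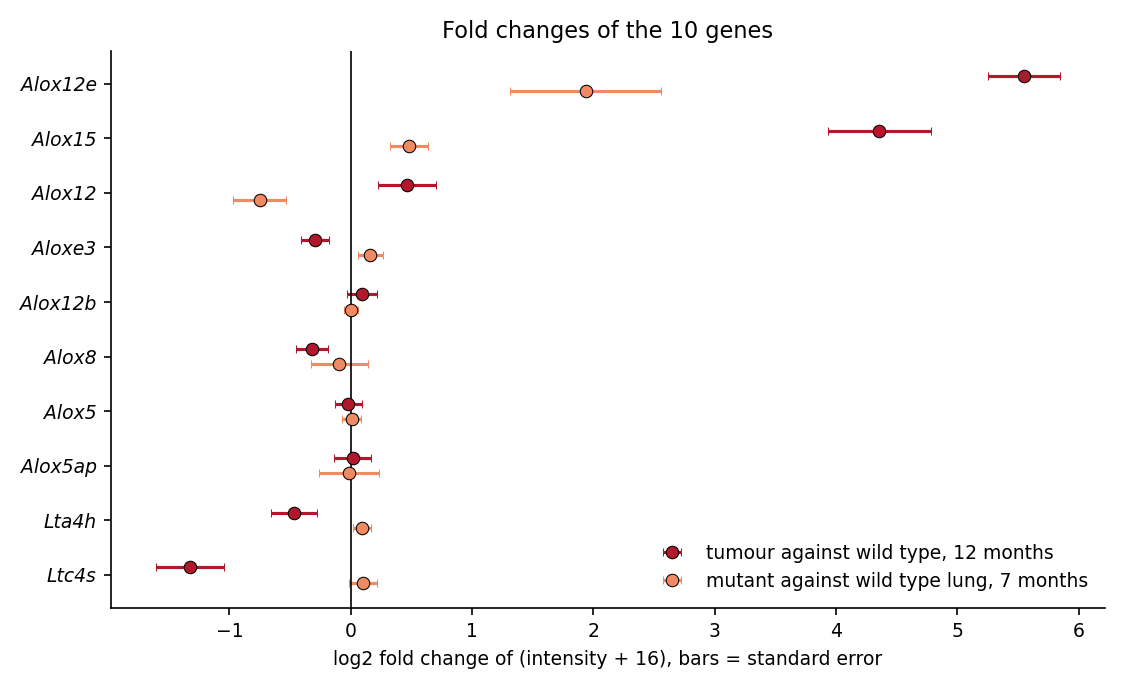
Log2 fold change of (intensity + 16) for the 10 genes, in tumours over wild type lungs at 12 months and in mutant over wild type lung at 7 months. Points are the fitted values from 3 arrays a group and bars their standard errors. Alox12e (5.55) and Alox15 (4.36) stand far to the right in tumours and Ltc4s (-1.32) to the left.

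As a group the 10 genes had no common direction. At 7 months limma called 0 of 10 higher and 0 lower after Benjamini-Hochberg adjustment. Of all genes, 6.42% were called higher and 1.39% lower. The count of members called was 1 without wild type array 1 (Alox12) and 2 without mutant array 1 (Alox12e and Alox15). An unadjusted p under 0.05 was seen in 3 of 10 (Alox12, Alox12e and Alox15). The share of all genes at that unadjusted p was not computed. It is at least the 7.81% called in either direction, so the 3 are not read as an excess. Such counts in the lists below also stand without that share. In 1 gene, Alox15, the 3 mutant values all lay above the 3 wild type values, against 15.2% of all genes, and in 1, Alox12, all lay below, against 10.9%. The median log2 fold change at 7 months was 0.05 over the 10 genes and 0.01 over all genes.

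At 12 months the tumour contrast chose the genes, so these counts only describe them. Among the 10, the tumour values lay entirely above wild type in 2 (Alox12e and Alox15; 20.5% of all genes) and entirely below in 3 (Aloxe3, Lta4h and Ltc4s; 17% of all genes). A fold of at least 2 was seen upward in 2 (4.46% of all genes) and downward in 1, Ltc4s (2.17% of all genes). The median log2 fold change was -0.0028 over the 10 genes and 0.01 over all genes. Over all genes, limma called 9.23% higher and 6.02% lower in tumours, the background for the gene lists that follow.

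In tissue RNA, fewer cells of a type and less RNA per cell cannot be told apart, so markers of the cells known for these enzymes are given beside them. The 12 measured squamous and basal cell genes, keratins and other genes of stratified epithelium, summed to 4207, 3271 and 6913 in tumours and 505, 508 and 498 in wild type lungs at 12 months. At 7 months their sum was 797, 1177 and 1408 in mutant lungs and 471, 552 and 597 in wild type lungs. The tumours and the mutant lungs stood in the same order by this sum as by Alox12e, and Alox15 gave that order too. It was not particular to this list in tumours. The summed level of 9 ciliated cell genes, at 15570, 11988 and 17749, gave the same order there. In mutant lungs that ciliated sum, at 7897, 8675 and 7304, gave another order. The order was not particular to the squamous and basal list in mutant lungs either. The summed level of 9 neutrophil genes, at 6343, 9026 and 20324, gave it there, though not without Ltf, at 3743, 3209 and 13559. Of the 12, limma called 7 higher and 0 lower in tumours, among them Krt17 (10.7-fold, adjusted p 0.00149), Krt15 (55.7-fold, adjusted p 0.00303) and Krt14 (23.4-fold, adjusted p 0.00330). In mutant lungs at 7 months it called 3 higher and 0 lower: Krt15 (3.22-fold, adjusted p 0.00291), Sprr1a (2.02-fold, adjusted p 0.0130) and Trp63 (1.97-fold, adjusted p 0.0411). Genes of the cornified envelope were mixed: the precursor gene Sprr1a was also called higher in tumours (2.06-fold, adjusted p 0.0186), while Lor, which encodes loricrin, averaged 56.6 in tumours and 52.7 in wild type lung (adjusted p 0.803). The part of squamous or basal cells in the level of Alox12e was not tested.

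Of 14 epidermal barrier lipid genes, which work with Alox12b and Aloxe3 in skin, limma called 0 in tumours in either direction, and 0 had an unadjusted p under 0.05. Several were dim at 12 months, so that a missing call says little for them. Lipn averaged 8.86 in tumours and 11.6 in wild type lung, and Elovl4 17.1 and 23.4. The brightest, Cyp4f39, averaged 302 and 277. At 7 months 1 was called higher, the sulfotransferase Sult2b1 (log2 fold change 0.58, adjusted p 0.0308, 70.2 ± 8.40 in mutant and 41.6 ± 7.23 in wild type lung), and 1 lower, the dehydrogenase Sdr9c7 (1.38-fold lower, adjusted p 0.0442, 35.9 ± 4.55 in mutant and 55.6 ± 8.39 in wild type lung).

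The 7 measured platelet and megakaryocyte genes summed to 3220, 2814 and 2292 in mutant lungs at 7 months and to 2832, 6384 and 5197 in wild type lungs. Alox12 was highest on wild type arrays 2 and 3, the 2 arrays with the highest platelet sum, and lowest on mutant array 3, the array with the lowest sum of these 6. None of the 7 was called at 7 months by limma and 5 had an unadjusted p under 0.05. Their median log2 fold change was -0.73. At 12 months the platelet sums were 2068, 2926 and 2101 in tumours and 3353, 3477 and 3087 in wild type lungs, with 1 gene called lower, the platelet receptor Clec1b (2.58-fold lower, adjusted p 0.0167). The platelet sum was thus lower in every tumour, while Alox12 averaged 131 in tumours and 93.2 in wild type lungs of that age, with overlapping values. The part of platelets in the level of Alox12 was not tested.

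Leukocytes that make leukotrienes were followed with 4 lists. The 14 macrophage genes summed to 35859 to 47614 in tumours and 61282 to 70417 in wild type lungs at 12 months, with 0 called higher and 5 lower (Cd68, Mertk, Ctsk, Itgax and Adgre1, from 1.56- to 4.27-fold lower). Ltc4s and the macrophage sum were thus both lower in every tumour. Both were lowest in tumour 3, but Ltc4s was highest in tumour 2 and the macrophage sum in tumour 1. Among the wild type lungs of that age the 2 stood in the same order. The part of macrophages in the level of Ltc4s was not tested. At 7 months the macrophage sums were 35186 to 40839 in mutant and 26211 to 42109 in wild type lungs, with 1 gene called higher (Plet1) and 1 lower (Mertk). The list was mixed in tumours, where C1qa, Cd5l and Fabp4 had log2 fold changes of 0.32, 0.31 and 0.15 and were not called. The part of macrophages in the level of Alox15 was not tested.

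The 9 neutrophil genes summed to 16563 to 32137 in tumours and 5541 to 11448 in wild type lungs at 12 months, and to 6343 to 20324 in mutant and 3908 to 15863 in wild type lungs at 7 months. Without Ltf the sums were 7200 to 22196 in tumours and 5251 to 9642 in wild type lungs at 12 months, and 3209 to 13559 in mutant and 3511 to 15773 in wild type lungs at 7 months, so the groups overlapped at both ages. The gene called in both comparisons was Ltf, lactoferrin, which airway glands also make (9.80-fold higher in tumours, adjusted p 0.0434; 17.3-fold higher in mutant lungs, adjusted p 0.00234). Of 5 eosinophil genes, Siglecf, which alveolar macrophages also carry, was called lower in tumours (5.70-fold lower, adjusted p 0.0248). The other 4 were not called: at 12 months Epx and Ccr3 read at most 20.5 in tumours and 20.7 in wild type lungs, whereas Prg2 read 69.2 to 261 in tumours and 52.1 to 274 in wild type lungs, and Il5ra read 39.2 to 86.5 in tumours and 42.7 to 53.5 in wild type lungs. Of 10 mast cell genes, Hdc, Cpa3 and Cma1 were called higher in tumours (1.65- to 1.93-fold) and Kit lower (2.04-fold lower). In mutant lungs at 7 months Hdc was called higher (1.60-fold, adjusted p 0.0149).

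Many but not all markers of airway epithelium rose in both mutant groups. Of 9 ciliated cell genes, limma called 9 higher in tumours and 8 higher in mutant lungs at 7 months. Of 10 airway secretory genes it called 7 higher in tumours and 7 higher in mutant lungs. The secretoglobin Scgb1a1 was called in neither (1.03-fold in tumours, adjusted p 0.786, and 1.06-fold in mutant lungs, adjusted p 0.388). Scgb3a1 and Scgb3a2 were called higher in mutant lungs but not called in tumours. The part of airway cells in the level of Alox15, which human airway epithelium is known to make, was not tested.

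**Figure D3:**
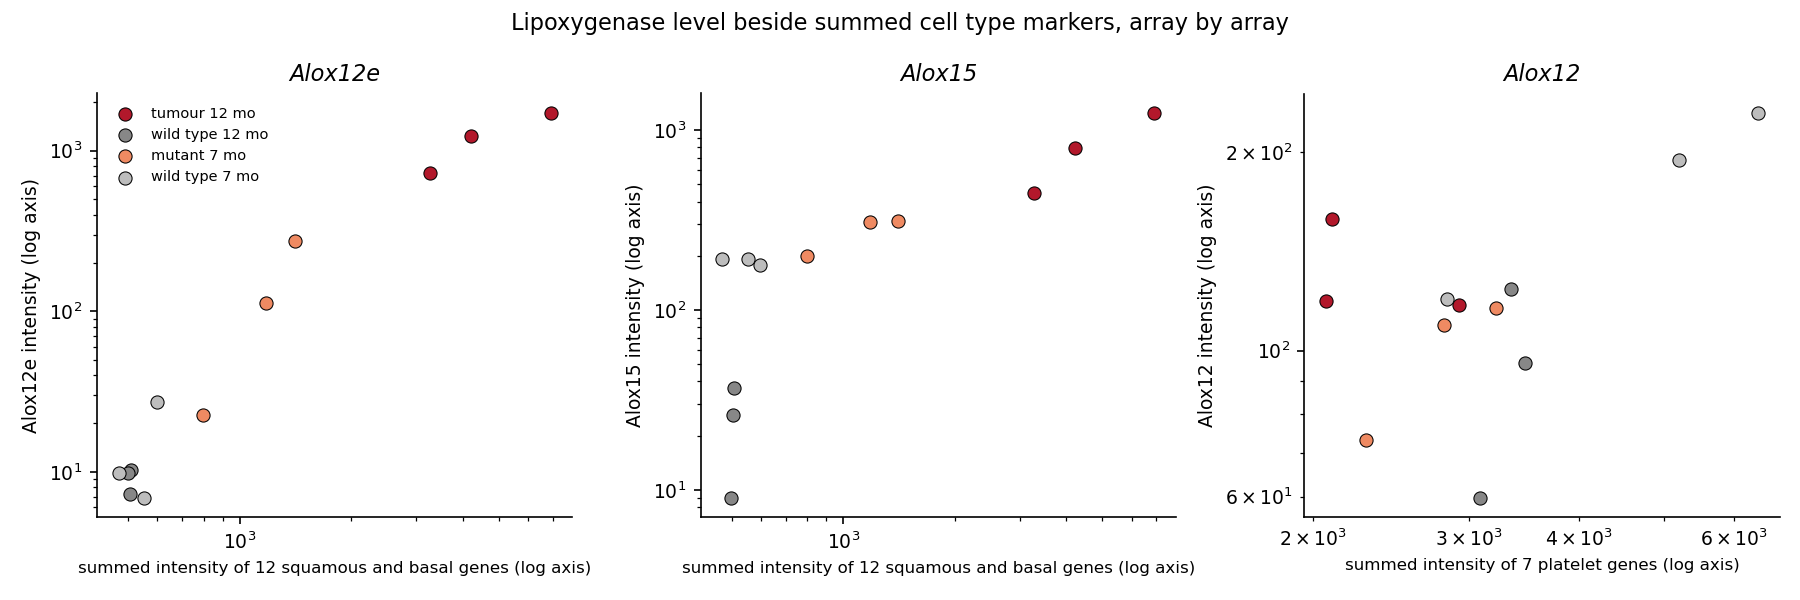
Intensity of Alox12e and Alox15 against the summed intensity of 12 squamous and basal genes, and of Alox12 against that of 7 platelet genes, on 12 arrays (both axes log). Points are arrays coloured by group. The tumours run from 3271 to 6913 in the squamous and basal sum, with Alox12e from 729 to 1723 in the same order.

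The genes whose pattern was most like each of the 2 tumour genes were named by Pearson's correlation of log2(intensity + 16) over all 15 arrays, among 14121 genes. The arrays share groups and ages, so these values describe the same group differences and carry no test. For Alox12e they were Krt14 (0.989), Clca3a2 (0.988), Pax9 (0.977), Krt17 (0.976) and Rgs5 (0.9754). For Alox15 they were Ubd (0.967), S100a6 (0.960), Krt5 (0.960), Klf5 (0.957) and Zdhhc7 (0.955). Krt14 and Krt17 are keratins, and both lie in the squamous and basal list with Krt5. Between Alox12e and Alox15 the correlation was 0.797 over the 15 arrays, which put Alox15 at rank 1055 for Alox12e, and 0.987 over the arrays of 12 months alone.

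The neighbours of Alox15 give a setting for these values. Of the 5 protein-coding genes to each side of Alox12, Alox12e and Alox15, 9 of 10 were measured, and their log2 fold changes in tumours ran from -0.65 to 1.51. Limma called 1 higher, the monocarboxylate transporter family gene Slc16a11 (2.85-fold, adjusted p 0.00444, 2409 ± 362 in tumours and 829.6 ± 42.1 in wild type lung), which was also called higher in mutant lungs at 7 months (log2 fold change 0.68, adjusted p 0.00334). It called 1 lower, Zmynd15 (1.57-fold lower, adjusted p 0.0192, 155 ± 13.2 in tumours and 253 ± 32.6 in wild type lung). Pelp1, next to Alox15, had a log2 fold change of -0.01 and Rnasek, next to Alox12, one of -0.13. Aloxe3, Alox12b and Alox8 also lie next to each other on the same chromosome.

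**Figure D4:**
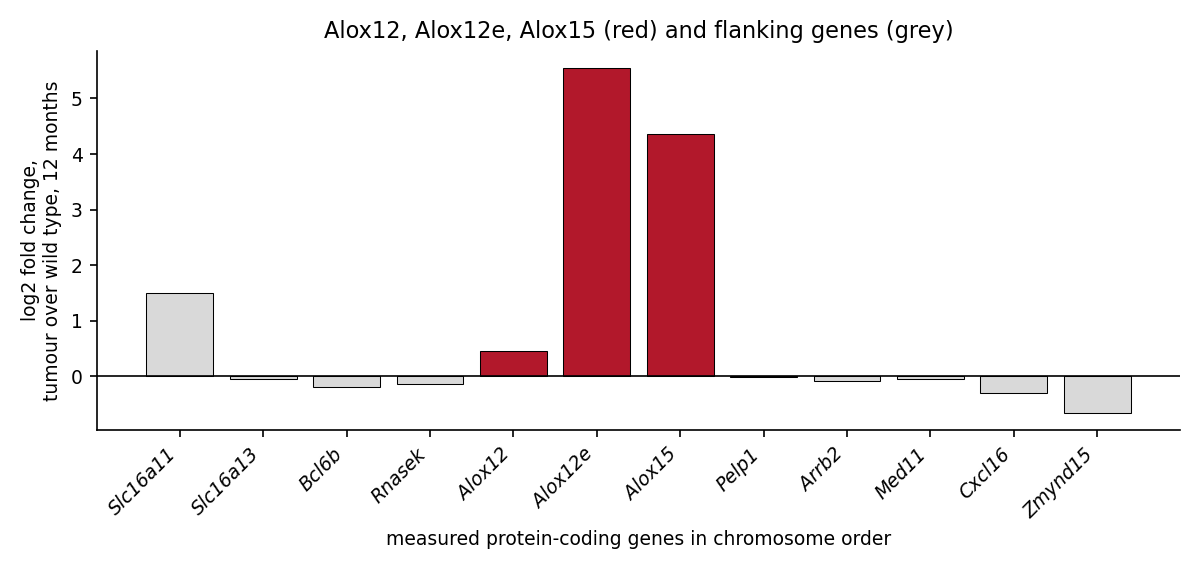
Log2 fold change of tumours over wild type lungs at 12 months for Alox12, Alox12e and Alox15 (red) and the 9 measured genes around them (grey), in chromosome order. Each bar is the fitted value from 3 arrays a group. Alox12e (5.55) and Alox15 (4.36) stand above Alox12 (0.47) and Pelp1 (-0.01).

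The rest of the pathway was read from 24 further genes, of which 21 were measured and Ggt1, Dpep2 and Ltb4r2 were not analysed here. In tumours limma called 3 higher and 1 lower, with a median log2 fold change of 0.04. The export pumps rose: Abcc4, which exports prostaglandins and leukotriene B4, was 3.14-fold higher (adjusted p 0.00481), at 1759 in tumours and 543 in wild type lung, and Abcc1, the exporter of leukotriene C4, was 2.16-fold higher (adjusted p 0.0112), at 1450 in tumours and 651 in wild type lung. Pla2g4a, the cytosolic phospholipase that frees arachidonic acid, was 1.54-fold higher (adjusted p 0.0413). Dpep1, a dipeptidase that turns leukotriene D4 into E4, was 1.87-fold lower (adjusted p 0.00998), at 911 in tumours and 1710.35 in wild type lung. The first 2 and Dpep1 were called in all 16 alternatives run and Pla2g4a in 10, losing the call with 1 added before logs and without any 1 array other than tumour array 2.

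In mutant lungs at 7 months 5 of the 21 were called higher and 0 lower, with a median log2 fold change of 0.16. Abcc4 was 2.06-fold higher (adjusted p 0.000152), at 824 ± 42.6 in mutant and 392 ± 29.9 in wild type lung (SD, n = 3 each). Pla2g4a was 1.51-fold higher (adjusted p 0.00140), at 1086 ± 38.6 in mutant and 713 ± 56.9 in wild type lung. Mgst2, a microsomal enzyme that can also make leukotriene C4, was 1.499-fold higher (adjusted p 0.00490), at 675 in mutant and 447 in wild type lung. Abcc1 and Ptgr1, which breaks down leukotriene B4, were each close to the threshold (log2 fold change 0.29 each, adjusted p 0.0473 and 0.0490). The count of 5 was 3 without wild type array 1, without wild type array 3, without mutant array 2 or without mutant array 3. Abcc4 and Pla2g4a were called in all 18 alternatives run and Mgst2 in 17, against 6 each for Abcc1 and Ptgr1.

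Limma called 0 of 6 measured receptors at either age, with 2 at an unadjusted p under 0.05 in tumours (Fpr2 and Cmklr1, both with negative log2 fold changes) and 0 in mutant lungs at 7 months. Ltb4r1, the high-affinity receptor of leukotriene B4, had log2 fold changes of 0.00 in tumours and 0.24 in mutant lungs at 7 months. The cysteinyl leukotriene receptors had 0.24 (Cysltr1) and 0.14 (Cysltr2) in tumours, and 0.19 and 0.03 in mutant lungs. Fpr2, a receptor that also binds lipoxins in humans, had -1.35 in tumours (adjusted p 0.0796). Against the 1 wild type array without Xist signal the log2 fold change of Fpr2 was -1.82 and that of Cmklr1 -0.56. Pla2g4a, Abcc4 and Abcc1 were the pathway genes called higher in both comparisons, which use separate wild type arrays. The share of all genes called higher in both was not computed, so this overlap is not read as an excess. Abcc4 was called in every alternative of both comparisons. Abcc1 was called in 6 of 18 at 7 months and Pla2g4a in 10 of 16 in tumours.

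**Figure D5:**
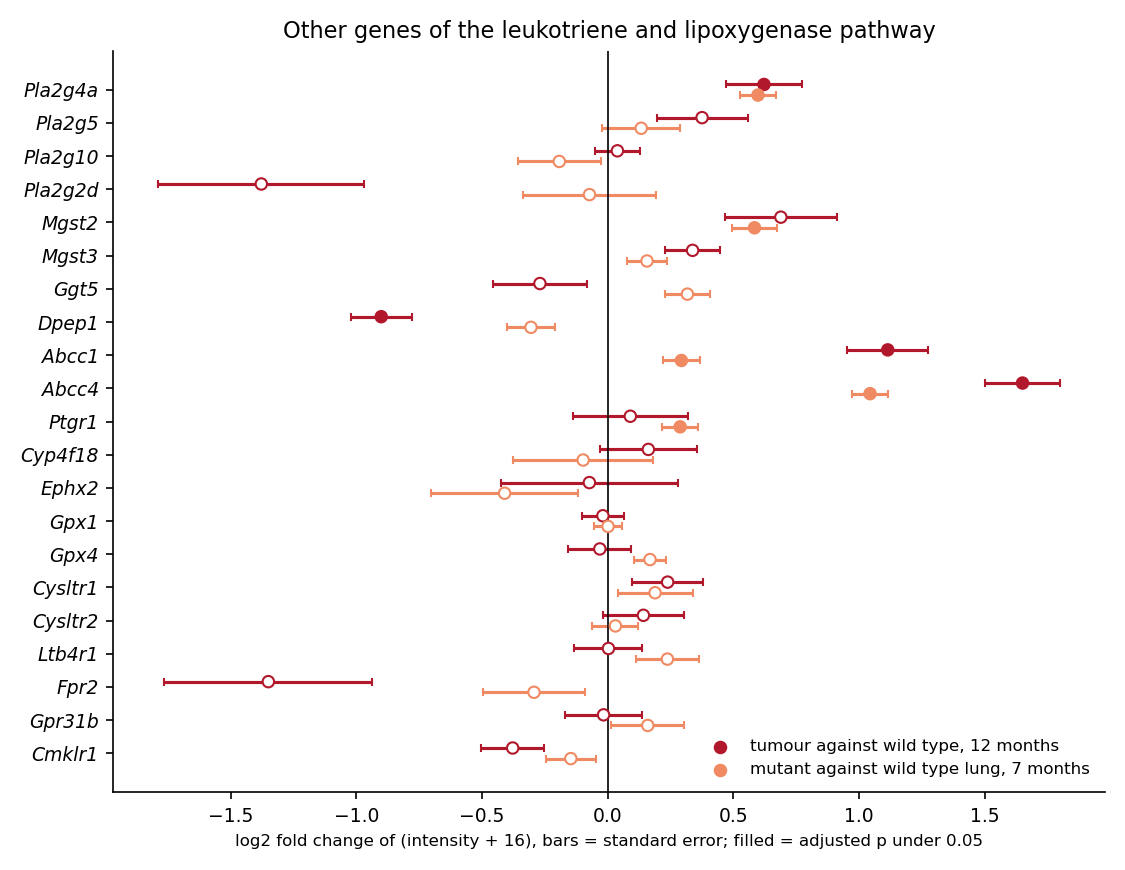
Log2 fold change of (intensity + 16) for 21 further genes of the pathway, in tumours over wild type lungs at 12 months and in mutant over wild type lung at 7 months. Bars are standard errors from 3 arrays a group, and filled points had an adjusted p under 0.05. Abcc4 stands farthest right in both comparisons, at 1.65 in tumours and 1.04 in mutant lungs.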

How the data were processed

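RNA of 15 mouse lung and lung tumour samples, 3 arrays a group, was measured on Affymetrix arrays. The authors deposited 1 linear intensity per probe set and array. How background, summarization and scaling were handled was not given in the sources used here, and array medians of 90.9 to 99.5 show a common level. The platform annotation named the probe sets (34945 with 1 symbol once control probe sets were left out, 932 with several and left out, 9211 unnamed). Where a gene had several probe sets, the one with the highest mean log2(intensity + 16) over 15 arrays was taken, giving 18193 genes. The 10 members have 13 probe sets.

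Groups were compared with the two-sided moderated test of limma 3.58.1 under R 4.3.3, with p-values adjusted by Benjamini-Hochberg over all 18193 genes, and called at an adjusted p under 0.05. The 12-month groups were fitted on their 6 arrays and the 7-month groups on 9; a further 7-month group of 3 arrays adds to the spread and to the choice of probe sets but is not reported here. Because 16 is added before logs, folds of dim genes are too small, and 17.1% to 21.1% of an array's probe sets lay below 16. Arrays of a group correlated at 0.982 to 0.994 and 0 pairs were identical. The number of arrays limits the precision.

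The members and all lists were chosen with earlier results of these data known. All 10 members are named, and of each list up to 6 called genes by smallest adjusted p. Genes most like Alox12e and Alox15 were the 5 with the highest correlation among genes reaching 64 on some array. Epx, Ccr3, Lor, Fpr2, the secretoglobins, the flanking genes and the receptors were picked for their role after values were seen. Promoters are from RefSeq. The fits were tested on simulated data.

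The alternatives were quantile normalization, median centring, pseudocounts of 1 and 64, leaving out dim genes or _x_at probe sets, the mean of all probe sets, other probe sets of a member, a variance trend with robust fitting, 1 model of 15 arrays, only the groups compared, a replicate block, Xist as a covariate and leaving out each array.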

Additional observations from a re-analysis of the deposited data

Results flagged for a closer look

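For 3 of the 10 genes, all 3 tumours lay on one side of the wild type mean of their age and all 3 mutant lungs lay on the opposite side of theirs. How many of all genes meet this rule was not counted, so the 3 have no background share beside them. The rule allows overlap with single wild type arrays, as for Aloxe3 and Ltc4s at 7 months and Alox12 at 12 months. The difference between the ages was not tested for any of them. For Alox12 the log2 fold change of tumours against wild type at 12 months minus that of mutant lungs against wild type at 7 months was 1.22 (0.47 and -0.75). For Aloxe3 this difference was -0.46 (-0.30 and 0.16). For Ltc4s it was -1.42 (-1.32 and 0.10). Tumour and mutant lung are different tissues, and the ages are separate sets of arrays.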

How the results depend on the processing

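No fold change of at least 2 among the 10 genes changed direction under the alternatives run. The count of members called at 7 months was 0 and became 1 with a variance trend and robust fitting (Alox12), and 0 to 2 when any 1 array was left out. The count of all genes called at 7 months, 1421, was 767 with only the 2 groups compared and 942 to 1217 when any 1 array was left out. Of the further pathway genes, 5 were called at 7 months, and 3 with median centring, 3 with a pseudocount of 1, 2 with 1 model of 15 arrays, 3 with only the 2 groups compared, 3 with Xist as a covariate and 3 to 4 when any 1 array was left out. The count of all genes called in tumours, 2774, was 4926 with 1 model of 15 arrays and 842 to 3326 when any 1 array was left out, lowest without wild type array 3. Pathway genes called in tumours were 4, and 9 with 1 model of 15 arrays and 3 to 5 when any 1 array was left out. The comparison against the wild type array without Xist signal was a choice made after seeing the data. It has 1 wild type array and so holds no wild type spread at 12 months. It is among the 16 alternatives counted for the pathway genes in tumours. Leaving out an array or a group leaves fewer samples by construction; otherwise the cause was not tested.

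Replicate numbers at 7 months showed no sign of pairing the samples. Deviations of same-numbered arrays correlated at -0.13, 0.02 and -0.08, and those of differently numbered arrays at -0.04 to 0.14. Deviations from means of 3 arrays cannot settle whether samples were paired. With the replicate block 1149 genes, 0 members and 3 further pathway genes were called. No paired fit was run at 12 months. Labels there give a number for every array except a tumour array. The numbers differ between the groups and are not said to be animals, so they do not settle whether samples were paired. Fits of only the groups compared were the same as the reported ones at 12 months, and comparisons with the further 7-month group were not run here.

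Intensities near or below 16 (Alox12b, Alox8, and wild type Alox12e) give no reliable size of a fold. For Alox5ap the 95% interval at 7 months spans folds of 0.670 to 1.46.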
